A study of Mus musculus with 5 samples.

Results

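Bins of the mouse genome that were called less methylated in exactly 1 of 4 single hepatocytes, with an intermediate deposited score, are described here. The members were chosen from the deposited demethylation lists of the 4 cells: a bin of 10 kb was kept when its start was listed in exactly 1 cell (a private bin) and its deposited score was 400 or more. The rule gave 474 members out of 795 private bins and 992 different demethylated bins in all. Each cell was compared by the authors with a reference cell pool from mouse liver, and a bin was listed when the cell was called less methylated than that pool. Cells and pool came from C57BL/6 mice, a common inbred laboratory strain, whose livers were perfused with collagenase. Hepatocytes, the liver's metabolic cells, were picked singly with capillaries under a microscope. DNA was cut with MseI and read by reduced representation bisulfite sequencing, in which unmethylated cytosines are converted and so can be told from methylated ones. Cells 1 and 2 received 2 ng of salmon DNA as a buffer and cells 3 and 4 received 2 ng of tRNA cDNA. Each cell is 1 library without a replicate, the labels name no animal or age, and the lists hold no marker levels by which the cell type could be checked.

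DNA methylation in mammals sits mostly on the cytosine of CG pairs. It is copied to the new strand at replication by a maintenance enzyme, and it is lost when that copying fails or when methylated cytosines are oxidised and replaced. Most of the genome outside CG-rich gene starts is methylated in differentiated cells such as hepatocytes. A single cell holds only a few copies of each site, so an intermediate level over a bin of 10 kb averages over the sites and copies that were read.

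Deposited scores ran from 0 to 714 in the demethylated bins and from 773 to 1000 in the bins listed as more methylated than the pool. The score is the authors' own value, and how it was defined is not stated in the labels or file headers. The members lie in the upper part of the first range, nearer to the scores of bins called more methylated. A high score is therefore not taken here as a strong loss. Depth and the covered part of the genome are unknown for every cell. A bin that is not in a cell's list may have been unchanged or unread there.

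Of the members, 85 (17.9%) held a transcription start of the RefSeq promoter table (build GRCm38.p6, the assembly behind mm10), 99 genes in all. The shares were alike in private bins of lower score, 53 of 321 (16.5%), and in bins shared by several cells, 33 of 197 (16.8%). The 250 bases before each start were read as a window, in which the CG pairs of a promoter can be counted. Each window was counted once, also where overlapping members share it, and 4 of the 109 windows of members run past the edge of their bin. A CG pair was found in 96.3% of them (against 92.2% of 30970 windows on the same chromosomes), and 50 held 10 or more (45.9%, against 38.1%). In the windows of lower-scoring private bins, 41 of 78 held 10 or more (52.6%). The recognition letters of MseI, TTAA, which read the same on both strands, were found in 36 member windows (33.0%, against 48.9% of all windows and 47.4% of those in lower-scoring private bins). These are counts of letters, and windows within a bin share it. Searched on 1 strand, CG reads the same on the other, and the 2 letter groups cannot overlap.

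The most CG-rich windows among the members lay before annotated starts of 4 genes. Gas2, growth arrest-specific, had 50 CG pairs (chromosome 7, bin from 51854000 to 51864000, cell 1, score 538). Phf12, a PHD finger protein of a histone deacetylase complex, had 41 (chromosome 11, bin from 77979000 to 77989000, cell 1, score 615). Kmt5a, the histone H4 lysine methyltransferase SET8, had 39 (chromosome 5, bin from 124444000 to 124454000, cell 2, score 417). The non-coding Gm34086 had 34 (chromosome 5, bin from 124028000 to 124038000, cell 1, score 533). Each of these windows overlapped the annotated span of its own gene, that of Gas2 also Fancf and that of Gm34086 also Vps37b. The start used for Kmt5a lies inside the gene. Of the 109 windows, 38 overlapped no annotated gene. The 4 most CG-rich of these, 1 per bin, are printed to show what sequence a member can hold at a gene start, 5′ to 3′ on the gene's strand, with CG pairs in capitals.
Tmem117: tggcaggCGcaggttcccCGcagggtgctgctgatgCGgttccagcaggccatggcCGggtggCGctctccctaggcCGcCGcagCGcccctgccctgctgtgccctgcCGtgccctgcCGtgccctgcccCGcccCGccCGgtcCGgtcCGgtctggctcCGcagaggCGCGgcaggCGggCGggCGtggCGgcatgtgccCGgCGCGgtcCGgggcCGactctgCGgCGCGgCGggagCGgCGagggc
Inafm2: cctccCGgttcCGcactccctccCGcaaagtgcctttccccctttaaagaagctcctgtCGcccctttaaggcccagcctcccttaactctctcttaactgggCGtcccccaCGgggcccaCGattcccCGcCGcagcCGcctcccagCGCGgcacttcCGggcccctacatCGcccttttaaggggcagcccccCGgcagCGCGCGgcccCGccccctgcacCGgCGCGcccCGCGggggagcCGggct
Rab1b: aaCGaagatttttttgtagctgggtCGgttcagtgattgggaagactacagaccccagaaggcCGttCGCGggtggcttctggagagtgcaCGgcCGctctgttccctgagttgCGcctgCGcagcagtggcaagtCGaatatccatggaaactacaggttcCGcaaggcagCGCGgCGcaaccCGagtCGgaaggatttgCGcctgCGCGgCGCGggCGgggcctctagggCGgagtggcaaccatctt
Rftn1: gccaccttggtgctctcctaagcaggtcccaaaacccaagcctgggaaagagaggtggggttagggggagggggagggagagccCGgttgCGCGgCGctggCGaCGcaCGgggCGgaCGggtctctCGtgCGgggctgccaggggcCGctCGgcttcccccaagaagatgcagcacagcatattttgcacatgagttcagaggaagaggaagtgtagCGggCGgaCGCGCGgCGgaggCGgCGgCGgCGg

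The window of Tmem117, a transmembrane protein gene, lies on the plus strand of chromosome 15 from 94628935 to 94629184 and holds 33 CG pairs. Its bin scored 455 in cell 1. That of Inafm2 (chromosome 2, plus strand, 118745508 to 118745757) holds 25 CG pairs and 5 TTAA sites, and its bin scored 500 in cell 3. Rab1b encodes a GTPase of transport from the endoplasmic reticulum to the Golgi. Its window (chromosome 19, minus strand, 5106997 to 5107246) holds 23 CG pairs, and its bin scored 545 in cell 1. Rftn1 encodes raftlin, a lipid raft protein, and its window (chromosome 17, minus strand, 50190498 to 50190747) also holds 23, in a bin that scored 615 in cell 1. A score belongs to the whole bin, so it does not say whether the printed bases themselves lost methylation.

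**Figure D1:**
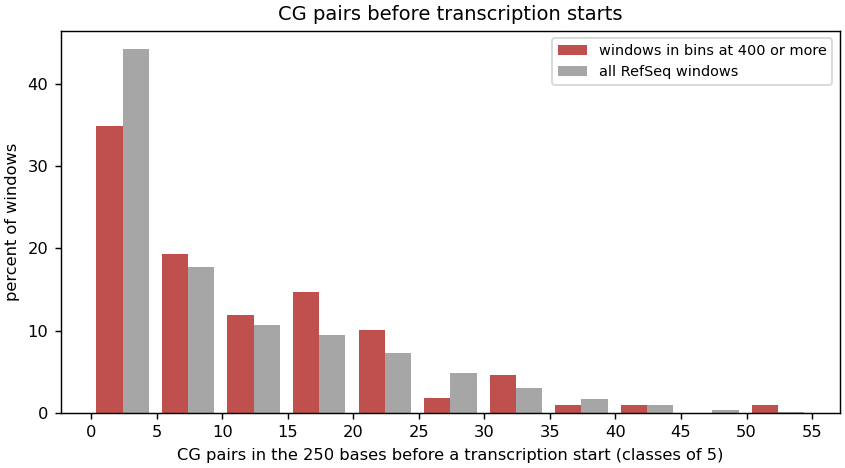
The horizontal axis gives the number of CG pairs in the 250 bases before a transcription start, in classes of 5, and the vertical axis the percent of windows. Red bars are the 109 different windows of members and grey bars all 30970 RefSeq windows on the same chromosomes; the class of 0 to 4 pairs holds 34.9% of the first and 44.2% of the second.

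Most members came from the cells with long lists. Cell 1 held 265 members (55.9%), cell 2 held 154 (32.5%), cell 3 held 51 (10.8%) and cell 4 held 4. The lists of cells 1 to 4 held 588, 426, 184 and 77 bins of 10 kb. Members were 45.07%, 36.15%, 27.72% and 5.2% of these called bins, so this share fell with the length of the list. Cells 1 and 2 received salmon DNA and cells 3 and 4 received tRNA cDNA. A difference between these pairs of cells cannot be told apart from one of the added DNA. Members made up 61.6% of the private bins of cell 1 (95% interval 56.8 to 66.2%), 57.5% in cell 2 (51.3 to 63.5%), 61.4% in cell 3 (50.1 to 71.9%) and 28.6% in cell 4 (8.39 to 58.1%, 4 of 14 bins). Of these shares of private bins the first 3 lie close together and cell 4 is low, with an interval that reaches the others. Intervals here are exact Clopper-Pearson intervals and cover counting error only. Bins called in several cells had a like share of calls at 400 or more, 292 of 480 (60.8%), which is given as a description because the score chose the members.

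Scores of the members ran from 400 to 714 with a median of 500. They were 400 to 714 in cell 1 (median 500), 400 to 667 in cell 2 (median 500), 400 to 688 in cell 3 (median 533) and 417 to 636 in cell 4 (median 481). From 400 to below 500 lay 185 members (39.0%), from 500 to below 600 lay 177 (37.3%), and 112 (23.6%) scored 600 or more. Only 39 different scores occurred, and 455 (66 members), 500 (58), 545 (49), 417 (47) and 636 (46) were the commonest. Scores were thus bunched on few values, and what a step between them stands for is not known. Just inside the limit, 12 members scored 400 and the next one 409. Just outside it, the highest scores of private bins were 389 (2 bins). Members in gene bodies, at gene ends and between genes had median scores of 500, 538 and 500.

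**Figure D2:**
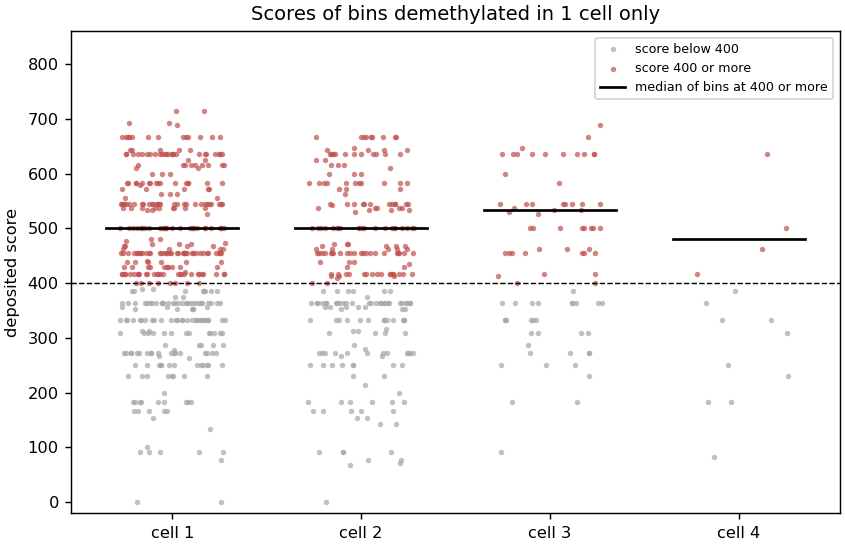
Each point is a bin demethylated in 1 cell only, with the cell on the horizontal axis (points spread sideways for legibility) and the deposited score on the vertical axis. Red points are the 474 members at or above the dashed limit of 400, grey points the 321 private bins below it, and black bars the median of the members of each cell, from 481 in cell 4 to 533 in cell 3.

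The highest-scoring members, which need not be the strongest losses, are given first, by cell. In cell 1 they were a bin on chromosome 5 from 115217000 to 115227000 with no gene (score 714), a bin on chromosome X from 52891000 to 52901000 with the ribosomal pseudogene Rps2-ps13 (714), a bin inside Hpd (692) and a bin inside Cln8 (692; chromosome 8, 14889000 to 14899000), which encodes a membrane protein of lysosomal enzyme transport. In cell 2, 4 of the bins at 667 are named by position order. One crossed an end of E2f5, a transcription factor of the cell cycle (chromosome 3, 14574000 to 14584000). Another lay inside Scarb1, the receptor through which hepatocytes take up cholesterol from high-density lipoprotein (chromosome 5, 125305000 to 125315000). The other two lay inside the kinase gene Lmtk2 (chromosome 5, 144139000 to 144149000) and near an end of Immt, a scaffold gene of the inner mitochondrial membrane (chromosome 6, 71865000 to 71875000).

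In cell 3 the highest scores were 688 in Fam83h and Iqank1 (chromosome 15, 76002000 to 76012000), 667 in the RNA-binding protein gene Rbm4b (chromosome 19, 4757000 to 4767000), 647 in 4921528I07Rik (chromosome 9, 114309000 to 114319000) and 636 in Paqr8, a membrane progestin receptor gene (chromosome 1, 20920000 to 20930000), the first by position of several at that score. All 4 members of cell 4 can be named. They lay inside the adhesion gene Dscaml1 (chromosome 9, 45662000 to 45672000, score 636), inside Tiam1, a Rac activator (chromosome 16, 90039000 to 90049000, 500), at Tomm7, part of the mitochondrial import pore (chromosome 5, 23832000 to 23842000, 462), and in a bin with only Gm23730 (chromosome 9, 70521000 to 70531000, 417).

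Members lay mostly in genes. By its midpoint, 260 of 474 (54.9%) were in a gene body, 55 (11.6%) at a gene end (no more than 1000 bp from the first or last annotated base of a gene) and 159 (33.5%) between genes. In all, 365 members (77.0%) overlapped at least 1 annotated gene, 446 genes together, of which 323 code for protein. The genic share, bodies and ends together, was 66.5% over all members (interval 62.0 to 70.7%). It was 66.4% in cell 1, 69.5% in cell 2 and 56.9% in cell 3, and 3 of the 4 members of cell 4 were genic, so that cell 3 was the lowest, with an interval of 42.2 to 70.7% that overlaps the other cells. The lists hold only called bins and the covered bins are unknown, so these shares cannot be set against the covered genome. Exon positions were not used here.

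A higher score did not go with a detectable difference in position relative to genes. Lower-scoring private bins were genic in 67.3% of 321 cases, and within cells the common odds ratio of members over these was 0.981 (95% interval 0.716 to 1.34, exact conditional test stratified by cell, adjusted p = 0.939). Gene ends held 10.3% of the lower-scoring bins (odds ratio 1.16, interval 0.720 to 1.91, exact conditional test, adjusted p = 0.723). Against the 197 bins shared by several cells, members were genic in 66.5% and 63.5% (odds ratio 1.14, interval 0.793 to 1.64, Fisher's exact adjusted p = 0.723) and at gene ends in 11.6% and 9.64% (odds ratio 1.23, interval 0.694 to 2.26, Fisher's exact adjusted p = 0.723). The gene end shares depend on the annotation: with protein-coding genes only they were 4.85% of members, 5.92% of lower-scoring private bins and 8.12% of shared bins, so both directions turned (odds ratios 0.816 and 0.577), and within 2000 bp they were 20.5%, 21.5% and 16.2%. Of these tests and the one on overlap given further on, 5 in all, 0 passed an adjusted p of 0.05 and 0 had an unadjusted p under 0.05. The tests are two-sided, treat bins as independent and compare these libraries, not groups of animals, and the intervals leave room for a moderate difference in either direction.

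**Figure D3:**
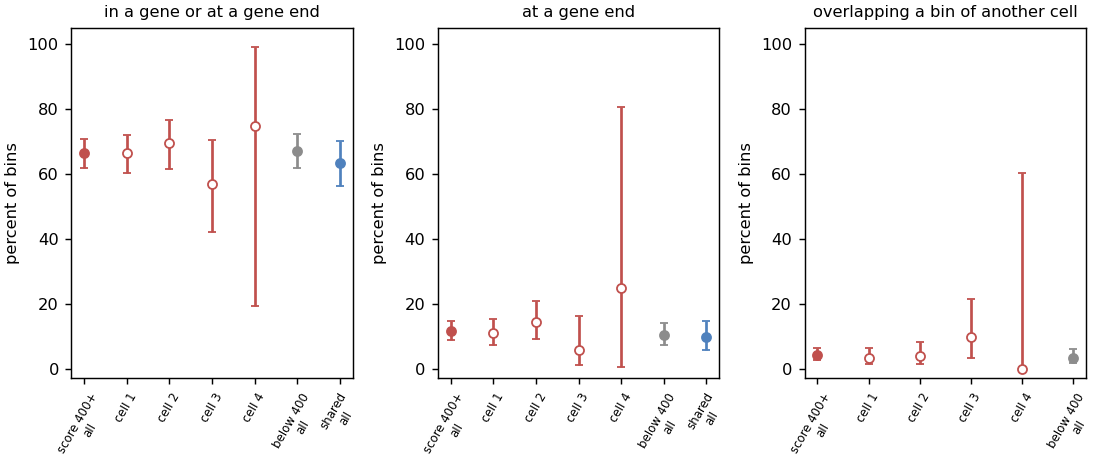
The vertical axes give the percent of bins that lie in a gene or at its end (left), at a gene end (middle), or overlap a shifted bin of another cell (right), with exact 95% intervals. Filled red points are all members, open red points the members of each cell, grey points private bins below 400 and blue points bins shared by several cells; the filled points of a panel have overlapping intervals.

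Gene surroundings and gene lengths were compared as well. The median number of annotated genes within 500 kb of a bin's middle was 27 for members and 25 both for lower-scoring private bins and for shared bins. For bins with the midpoint in a protein-coding gene, the median length of that gene was 68.7 kb in members (257 bins), 79.5 kb in lower-scoring private bins (178) and 80.9 kb in shared bins (102). These medians are descriptions without a test.

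Some members were private only by a small shift of the bin. Of the 474 members, 20 (4.22%, interval 2.60 to 6.44%) overlapped a demethylated bin of another cell that began at another start, by a shift of 1 to 9 kb (median 3 kb). Of the lower-scoring private bins, 11 of 321 did (3.43%; common odds ratio 1.26, interval 0.563 to 2.99, exact conditional test stratified by cell, adjusted p = 0.723). The count rests on the cells compared: without cell 1 it was 7 of 268 members (2.61%, against 2.62% of the lower-scoring bins) and without cell 3 it was 13 of 449 (2.90%, against 2.61%). The 20 members fell into 14 places, 5 of which held 2 or more members. Overlap with another member was found for 11 of them, with a shared bin for 7 and with a lower-scoring private bin for 3. The shift was 5 kb or less for 14 of the 20, and larger for the rest. With an overlap of 5000 bp or more required, the share was 2.95% of members and 1.87% of lower-scoring private bins (odds ratio 1.69, interval 0.5915 to 5.53).

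Pop5 was the place where 3 cells each had a member. This gene (chromosome 5, 115235588 to 115240972) encodes a protein subunit of the enzymes RNase P and RNase MRP, which process transfer and ribosomal RNA. The bin of cell 1 began at 115230000 and scored 417, that of cell 3 began at 115231000 and scored 545, and that of cell 2 began at 115232000 and scored 583. Each holds the start of Pop5, before which 23 CG pairs lie in 250 bases. By exact starts these are 3 private bins, while by overlap they are 1 place called in 3 of 4 cells.

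Hpd showed the same with 2 cells. It encodes 4-hydroxyphenylpyruvate dioxygenase, which breaks down tyrosine in the liver (chromosome 5, 123171807 to 123182723). Cell 3 had a bin from 123170000 with a score of 583 and cell 1 a bin from 123172000 with a score of 692. At Apol10b, an apolipoprotein L family gene on chromosome 15, cell 3 had a bin from 77587000 (score 455) and cell 1 one from 77592000 (500). On chromosome 7, bins of cell 2 from 30171000 (500) and cell 1 from 30179000 (545) met in the non-coding Gm5113.

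A further pair of members, from 114843000 in cell 1 (score 636) and from 114846000 in cell 2 (500) on chromosome 5, both held the microRNA gene Mir6240 (114851948 to 114852064, plus strand) and part of the non-coding Gm13821. Its mature RNA is printed because it was the only microRNA of RefSeq's table found in members of more than 1 cell, with the seed, bases 2 to 8, in capitals.
mmu-miR-6240: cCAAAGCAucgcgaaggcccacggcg

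Next to bins that 2 other cells shared lay members at Cdh22, a cadherin gene (chromosome 2, cell 2 from 165200000, score 417), at the zinc finger gene Zbtb42 (chromosome 12, cell 1 from 112678000, score 579) and at Fam83h (chromosome 15, cell 3 from 76002000, score 688). At Cdh22 the shared bin from 165201000 scored 250 in cell 1 and 538 in cell 3. The shared bin at Zbtb42 began at 112679000 and scored 500 in cell 2 and 462 in cell 3. That at Fam83h began at 76004000 and scored 471 in cell 1 and 357 in cell 2. The shift in these 3 places was 1 or 2 kb, against bins of 10 kb. A further such place, at Klc2 and Rab1b (chromosome 19), had a shift of 9 kb, where the member of cell 1 from 5104000 scored 545 and the shared bin from 5113000 scored 667 in cell 1, 500 in cell 2 and 154 in cell 4.

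**Figure D4:**
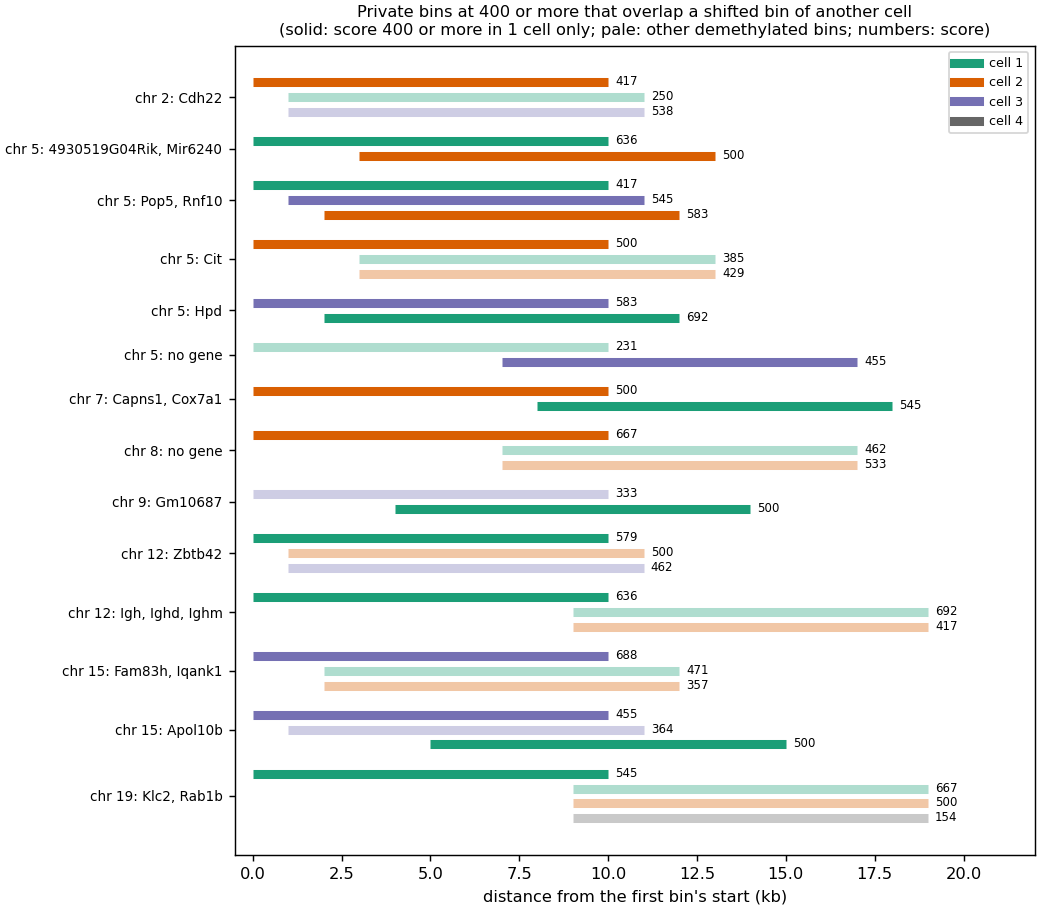
Each bar is a demethylated bin of 10 kb in 1 cell (colour), placed along the horizontal axis in kb from the first bin of its place, with its score at the right end. Solid bars are members and pale bars other demethylated bins; at Pop5 the 3 members of cells 1, 3 and 2 start 0, 1 and 2 kb along.

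Scores of neighbouring bins called in the same cell were also compared. For 13 members, in 12 pairs, the same cell had another demethylated bin overlapping or touching it, at a shift of 1 to 10 kb, and the 2 scores differed by 56 to 440 (median 187.5). In 4 of these pairs the shift was 9 or 10 kb, so that little or no sequence was shared, and in the 7 pairs with a shift of up to 5 kb the scores differed by 71 to 440 (median 212). In 7 of the 12 pairs the other bin was a private bin below the limit. At Mycbpap (chromosome 11, cell 2) the bin from 94524000 scored 583 and that from 94526000 scored 143. At Bag6, which encodes a chaperone of tail-anchored proteins (chromosome 17, cell 1), the bin from 35136000 scored 455 and that from 35137000 scored 667. A bin of cell 3 at Apol10b from 77588000 scored 364, below the limit, 1 kb from the member at 455. At Spg7, a mitochondrial protease gene (chromosome 8, cell 1), the bin from 123091000 scored 500 and that from 123087000 scored 263. Both bins of each pair were called, so the differences say nothing of bins called at 1 start.

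Overlaps included, 93 members (19.6%) had a demethylated bin of another cell starting within 100 kb, and 299 (63.1%) within 1000 kb. The shares for lower-scoring private bins were 15.9% and 62.3%. The median distance was 518 kb for members and 633 kb for lower-scoring private bins.

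Members were unevenly spread over the 19 chromosomes of the lists (chromosome 10 was not analysed here). Chromosome 15 had 38, or 3.66 per 10 Mb between its outermost annotated genes, chromosome 5 had 51 (3.36), chromosome 17 had 30 (3.17) and chromosome 19 had 18 (3.09). At the other end, chromosomes 3 and 13 each had 0.938 per 10 Mb, chromosome 1 had 1.02 and chromosome X had 0.234. Lower-scoring private bins were also dense on chromosomes 17 (2.43 per 10 Mb), 5 (2.11) and 15 (1.83) and sparse on X (0.234). On chromosome 19 they were not dense (1.20). The 4 members on X, in cells 1 and 2, were 0.844% of members on a chromosome with 6.87% of the length used, and shared bins were on X in 4.06% of cases. Chromosomal differences were not tested, and the coverage of each chromosome is unknown.

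On chromosome 5 most members lay near one end. Between 114000000 and 149000000, a window set after the positions were seen, lay 40 of its 51 members (78.4%), with 18 from cell 1, 16 from cell 2, 6 from cell 3 and 0 from cell 4. Lower-scoring private bins had 20 of 32 in the window. Pop5, Hpd, Scarb1, Mir6240, Kmt5a and Lmtk2 all lie in it.

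**Figure D5:**
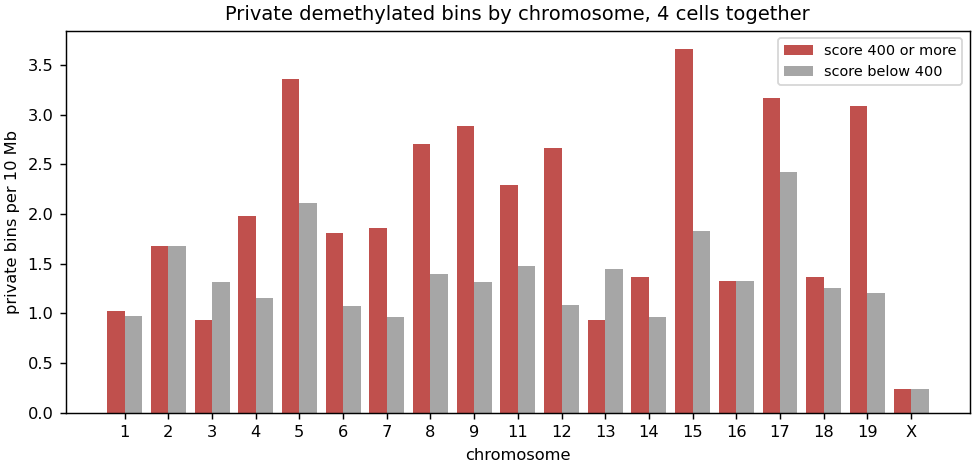
Bars give the number of private bins per 10 Mb of each chromosome, with the 4 cells together, for members (red) and private bins below 400 (grey). Chromosomes 15 (3.66) and 5 (3.36) are highest for members and X (0.234) is lowest.

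Repeated members in 1 gene were few. Of the 446 genes, 23 held 2 or more members and 3 held 3 or more. Dscaml1, a cell adhesion molecule of the immunoglobulin family (chromosome 9, 45427433 to 45753713), held 4 separate bins. Its scores were 455, 417 and 429 in cell 1 (bins from 45473000, 45555000 and 45610000) and 636 in cell 4 (from 45662000). The immunoglobulin heavy chain locus Igh, which is rearranged in B cells (chromosome 12, 113258768 to 116009954), held bins from 113402000 (cell 1, score 636), 113682000 (cell 2, 438) and 114131000 (cell 1, 583). The third gene was Pop5. Among the genes with 2 members, different cells supplied them at Adamts20, a metalloprotease gene (583 in cell 1 and 545 in cell 3), Cyth4, an ARF exchange factor gene (500 in cell 3 and 533 in cell 2), Galnt10, a glycosyltransferase gene (556 in cell 1 and 545 in cell 2), and Dmxl2 (429 in cell 1 and 500 in cell 3). One cell supplied both at Grik4, a kainate receptor gene (417 and 636 in cell 1) and at Spg7 (583 and 500 in cell 1). The genes with 3 or more members differ in length: Igh spans 2751.2 kb, Dscaml1 326.3 kb and Pop5 5.4 kb. The 3 bins at Pop5 overlap one another. A link of gene length with repeated members was not tested.

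The gene lists were read against all annotated genes. Of 47283 genes on the chromosomes used, 505 (1.07%) lay within 2000 bp of a member, and of the 20630 protein-coding ones 355 (1.72%) did. Of 48 genes of hepatocyte function, 2 (4.17%) lay within 2000 bp of a member, Hpd and Abcb11, the bile salt export pump (chromosome 2, bin from 69305000 to 69315000, cell 1, score 455). They account for 3 of 474 members (0.633%), and 2 of these bins are the overlapping ones at Hpd. At genes of this list lay 0 lower-scoring private and 0 shared bins. Those counts allow shares of up to 0.935% and 1.52%, above that of members, so they show no difference. Liver transcription factors (21 genes), enzymes and readers of DNA methylation (13), developmental regulators (70) and cell cycle and ageing genes (20) had 0 members. With a share of 1.72% over protein-coding genes, a count of 0 in lists this short says little. A count of 0 of 474 allows a share of up to 0.633% (3 counts of the total, for counting error only), which is also the share at hepatocyte genes. Developmental regulators had 2 lower-scoring private bins and 3 shared bins, and the other lists with 0 members had 0 of either.

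Imprinted genes are expressed from 1 parental copy and carry methylation differences between the copies. Of 46 such genes, 2 had a member (4.35%, against 1.07% of all genes and 1.72% of protein-coding ones). These were Dlk1, a Notch ligand-like gene (chromosome 12, bin from 109454000 to 109464000), and Slc22a3, an organic cation transporter gene (chromosome 17, bin from 12451000 to 12461000), each with a score of 417 in cell 1. Lower-scoring private bins also lay at 2 imprinted genes. Markers of other liver cells had members at 2 of 32 genes (6.25%, against the same 1.07% and 1.72%). At Ptprc, which encodes the leukocyte antigen CD45, cell 1 scored 667 (bin from 138067000) and cell 2 scored 542 (bin from 138107000) on chromosome 1. Des, the stellate cell marker desmin, was crossed by a bin of cell 1 from 75367000 (438), which also held part of Speg. Lower-scoring private bins lay at 2 genes of this list, and methylation at a marker gene is no measure of its expression.

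Among long and cell adhesion genes, 3 of 58 (5.17%) had a member, in 7 bins (1.48% of members, against 1.56% of lower-scoring private bins and 1.02% of shared bins). Beside Dscaml1 they were Tenm3, a teneurin adhesion gene (chromosome 8, 545 in cell 3 from 49217000 and 643 in cell 1 from 49301000), and Sdk1, a sidekick adhesion gene, within 2000 bp of a bin of cell 3 (chromosome 5, from 141231000, 636). Ion channel genes had members at 3 of 48 (6.25%), in 4 bins (0.844%, against 0.312% and 1.52%), among them Grik4 and Kcnip1, a potassium channel-interacting protein gene (chromosome 11, cell 2 from 33649000, 667). Each of these percentages rests on 2 or 3 genes. The share was 1.07% over all genes and 1.72% over protein-coding ones, and gene length was not taken into account. The shares are descriptions, as members and lists were chosen with earlier results known.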

How the data were processed

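Methylation was measured in 4 single mouse hepatocytes and 1 reference cell pool, and the deposited demethylation and methylation lists of the 4 cells were used. Bismark 0.7.6, Bowtie2 2.0.0, Trim Galore 0.2.2 with cutadapt 1.0, CASAVA 1.4 and the build mm10 are listed in the submitters' processing notes. The score of each bin was made by the authors and deposited, from 0 to 1000 over both kinds of list; its definition and the calling of bins are not given in the sources used here. Values of the pool were not analysed here.

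Entries of 10 kb were kept, starts written in exponent form were read as numbers, and the rule of the opening was applied. Coordinates are as deposited. Bins were placed by midpoint on a RefSeq table (GRCm38.p6, 47283 genes on the chromosomes used). Shares were compared with lower-scoring private bins by exact conditional tests of a common odds ratio with the cell as stratum, and with shared bins by Fisher's exact tests (R 4.3.3), with Benjamini-Hochberg adjustment over 5 tests. The test code was tested on simulated data. Samples were grouped by title. Named were the 4 highest-scoring members per cell (2 in the cell with fewest; its remaining members were added after their values were seen), members within 2000 bp of a gene of 9 lists, up to 12 genes with 2 or more members, and the 4 members with the most CG pairs before a start. Spg7 and the pairs of overlapping bins in 1 cell were named after their values were seen. One gene that the rule names is not reported here. The members and lists were chosen with earlier results of these data known. Alternatives were other score limits, overlap in place of equal starts, other gene placements, pooled cells and leaving out each cell. Depth is unknown, so no interval covers reads.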

Additional observations from a re-analysis of the deposited data

Results flagged for a closer look

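Outside the bins of 10 kb, the demethylation lists held 17 short entries of 100 bp near chromosome ends, 8 of them with a score of 400 or more (3 in cell 1, 2 in cell 2, 2 in cell 3 and 1 in cell 4), at 4 positions. Cell 1 listed some positions more than once. Its entries on chromosome 5 from 150224172 scored 182, 250 and 615, and those on chromosome 8 from 128028497 scored 91 and 500. One position on chromosome 9 from 123273338 scored 419, 447 and 583 in cells 1, 2 and 3. The short entries are no members, because the rule keeps only full bins.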

How the results depend on the processing

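The number of members was 289 with a score limit of 500 and ranged from 268 to 484 when each cell was left out, lowest without cell 1; limits of 350 and 450 gave 576 and 386, and 454 remained when any overlap with another cell removed a bin. Of 51 alternative tests 0 passed, and the lowest unadjusted p was 0.105. The direction turned in 6; the cause was not tested. The genic odds ratio against lower-scoring private bins was 1.105 with any overlap and 0.941 to 1.05 when leaving out each cell (above 1 without cell 3). That of gene ends was 0.986 with a limit of 450, 0.816 with protein-coding genes and 0.958 with ends of 2000 bp, and against shared bins 0.577 with protein-coding genes. No paired analysis was possible because each cell is 1 library and the pool is a single sample with no list. Unknown depth limits every comparison.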

Other observations

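The following members were named after their values were seen and form no tested group. A bin at Irs1, the insulin receptor substrate, scored 636 in cell 2 (chromosome 1, 82274000 to 82284000). Insig2, which holds back sterol synthesis, had a bin at 400 in cell 1 (chromosome 1, 121309000 to 121319000), at the limit of the rule. Aldh2, the mitochondrial aldehyde dehydrogenase of ethanol breakdown, had a bin near a gene end at 667 in cell 1 (chromosome 5, 121588000 to 121598000), and Lpcat3, which remodels phospholipids, one at 636 in cell 1 (chromosome 6, 124664000 to 124674000). The histone methyltransferase gene Nsd1 had a bin at 545 in cell 3 (chromosome 13, 55256000 to 55266000), the histone demethylase gene Kdm5a one at 500 in cell 1 (chromosome 6, 120406000 to 120416000) and the acetyltransferase gene Kat6b one at 533 in cell 1 (chromosome 14, 21543000 to 21553000). The remodeller gene Chd1 had a bin at 500 in cell 2 (chromosome 17, 15709000 to 15719000).

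Loss and gain of methylation met at the edge of 2 members. At Lamb2, a laminin gene on chromosome 9, cell 2 had a member from 108473000 with a score of 600 and, in the same cell, a bin called more methylated than the pool from 108464000 with a score of 818. At Dvl3, a Wnt signalling gene on chromosome 16, cell 1 had a member from 20519000 (600) and cell 3 a gain from 20512000 (812). A gain overlapped 2 of 474 members (0.422%), 0 of 321 lower-scoring private bins and 2 of 197 shared bins (1.02%).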
